A study of Mus musculus with 24 samples.

Results

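RNA of mouse oocytes arrested at metaphase of the second meiotic division (MII) was compared with the fraction of it that an antibody against N6-methyladenosine (m6A) captured. The comparison rests on 6 of the 24 samples of the series, 3 immunoprecipitated (IP) and 3 input libraries, chosen by their labels. The series follows m6A through the maternal-to-zygotic transition by SLIM-seq, an m6A immunoprecipitation for small amounts of RNA, at 3 stages: MII oocytes, late 1-cell (L1C) embryos and late 2-cell (L2C) embryos, each with 3 IP and 3 input libraries. A knockdown experiment in L2C embryos accounts for the other 6 samples and was not used here. The question for MII is which functional classes of maternal RNA were over- or underrepresented in the IP before fertilization.

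Oocytes came from 8-week-old wild-type B6D2F1 females (C57BL/6 J x DBA/2N) that were superovulated with pregnant mare serum gonadotropin and human chorionic gonadotropin, and hyaluronidase was used to take off the cumulus cells. Both MII groups share this strain and treatment and carry no engineered allele. They differ in that the IP libraries hold RNA eluted from the anti-m6A beads and the input libraries hold RNA of the same batches that was not passed over them. Many oocytes were pooled to give the total RNA of a sample. L1C and L2C embryos came from superovulated B6D2F1 females mated with B6D2F1 males and were cultured from the zygote stage. The sources do not say whether the 3 libraries of a group come from separate collections of oocytes, so p-values measure the spread between these libraries, which may be technical. Neither the protocol nor the labels describe fragmentation of RNA before the IP, so a value belongs to a whole RNA and not to a site in it.

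m6A is a methyl mark on adenosines of many RNAs. A nuclear complex around Mettl3 and Mettl14 writes it at adenosines in short motifs such as GGACT, Fto and Alkbh5 can remove it, and reader proteins that bind it steer splicing, export, translation and decay. The MII oocyte is transcriptionally silent: its mRNAs were made during growth, are held by storage proteins and by control of the poly(A) tail, and are used or destroyed around fertilization.

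Total estimated counts were 18557483 to 24308395 per input and 17043303 to 21140692 per IP library. All 12 oocyte markers checked were measured, with summed levels of 23611 to 24687 counts per 1000000 scaled counts of a library (CPM) in the inputs and 22407 to 22960 in the IPs, led by *H1foo*, the linker histone of the oocyte. Of 15 cumulus and granulosa markers, 9 passed the filter on low counts, *Ptx3*, *Ereg* and *Areg* were at 0 in every input, and the whole list summed to 65.5 to 72.8 CPM in the inputs and 44.9 to 51.0 in the IPs. Markers of blood summed to 4.05 to 4.16 CPM in the inputs against 6.67 to 8.24 in the IPs, and markers of 2-cell transcription to 30.8 to 36.8 against 49.4 to 51.4. The part of such transcripts in any class below was not tested. Across genes, log2 levels correlated with r = 0.981 to 0.985 within inputs, 0.979 to 0.985 within IPs and 0.915 to 0.931 between the kinds, a description over genes that share their libraries.

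IP and input differed widely. Of 15585 genes that passed the filter, 4307 (27.6%) were enriched and 4389 (28.2%) depleted in the IP at a Benjamini-Hochberg adjusted p under 0.05 in the quasi-likelihood test of edgeR, and in 9721 genes (62.4%) the 3 IP and 3 input values did not overlap. Depleted RNAs summed to 573922 to 588692 CPM of an input and 297900 to 312457 CPM of an IP, and enriched RNAs to 197993 to 204884 and 335837 to 356161. The inputs enter the ratio behind the calls, so these sums are a description. The median depleted gene stood at 33.1 CPM in the inputs against 9.45 CPM for the median enriched gene. The balance of the calls depends on how libraries are scaled. With trimmed-mean scaling (TMM), used throughout, the median log2 IP/input over genes was 0.08 and 49.5% of calls were enriched, while scaling to library size alone gave 5722 enriched and 3575 depleted genes, a median of 0.26 and 61.5% enriched. Values below are therefore read against the median of all genes: an RNA with a log2 IP/input near 0 may still carry m6A, and the IP gives no absolute degree of methylation. Levels are relative within a library, so in such bulk samples fewer cells of a type and less RNA per cell cannot be told apart.

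By kind of RNA, long intergenic noncoding RNAs leaned most to the IP among the 5 most numerous types. Of 955 measured, 365 (38.2%) were enriched and 81 (8.48%) depleted, with a median log2 IP/input of 0.50. These RNAs were short and low in the inputs, with a median of 1086 bases and 2.00 CPM. The shortest of 5 equal groups of nuclear mRNAs by length (median 1228 bases) gave 42.5% enriched, 6.81% depleted and a median of 0.41. The part of length and level in the lean of these noncoding RNAs was not tested. Of 12646 protein-coding genes, 26.7% were enriched and 31.3% depleted, with a median of 0.01. Processed pseudogenes (605 genes, median 0.36) and processed transcripts (236 genes, median 0.41) lay between. Reads of processed pseudogenes can be shared with near-identical parent genes.

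Transcripts of the mitochondrial genome stood highest of all classes. Of its 13 mRNAs, which encode subunits of the respiratory chain and ATP synthase, 12 were enriched, none was depleted and the median log2 IP/input was 1.80. Summed over the class, inputs held 715 to 961 CPM and IPs 1846 to 3124 CPM. The medians in IP replicates 1, 2 and 3 against the mean input were 1.78, 1.37 and 1.96. The other mRNA, *mt-Co2* (cytochrome c oxidase subunit 2), measured 0.04, 15.3 and 0.17 CPM in the inputs and 41.4, 35.0 and 9.25 CPM in the IPs, groups that overlap (adjusted p = 0.072). Nuclear copies of mitochondrial DNA can share reads with these genes, and most of their annotated spans touch a neighbouring gene.

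*mt-Nd3*, a subunit of complex I, measured 1.24, 2.23 and 1.43 CPM in the inputs and 8.84, 8.22 and 14.8 CPM in the IPs. All 3 IPs lay above all 3 inputs, with a log2 IP/input of 2.69 ± 0.30 (± after a log2 value is the standard error, n = 3 and 3) and an adjusted p of 3.1e-05. *mt-Cytb*, the cytochrome b of complex III and among the most abundant of the class, measured 246, 286 and 241 CPM in the inputs and 630, 470 and 813 CPM in the IPs (1.31 ± 0.17, adjusted p = 0.00012). The mitochondrial ribosomal RNAs moved the same way. *mt-Rnr2* (chrM:1094-2675, the 16S rRNA) rose from 176, 267 and 215 to 850, 622 and 1275 CPM, and *mt-Rnr1* (chrM:70-1024, the 12S rRNA) from 11.9, 13.9 and 11.5 to 61.4, 37.7 and 79.5 CPM, with a log2 IP/input of 2.06 ± 0.24 and 2.26 ± 0.24. IP replicate 2 was the lowest IP for both, as it was for *mt-Cytb* and *mt-Nd3*, and still lay above every input.

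The sequences of the 2 shortest mitochondrial mRNAs are shown because both were enriched while only one holds the GGACT core motif. They are given 5′ to 3′ on the sense strand from GENCODE M21 (GRCm38), *mt-Nd4l* at chrM:9877-10173 and *mt-Atp8* at chrM:7766-7969, with GGACT in capitals.
mt-Nd4l: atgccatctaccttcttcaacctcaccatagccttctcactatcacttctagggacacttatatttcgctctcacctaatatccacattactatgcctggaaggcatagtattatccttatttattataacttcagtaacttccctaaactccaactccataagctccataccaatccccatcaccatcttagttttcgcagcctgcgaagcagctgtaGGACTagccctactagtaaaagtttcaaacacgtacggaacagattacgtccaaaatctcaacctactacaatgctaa
mt-Atp8: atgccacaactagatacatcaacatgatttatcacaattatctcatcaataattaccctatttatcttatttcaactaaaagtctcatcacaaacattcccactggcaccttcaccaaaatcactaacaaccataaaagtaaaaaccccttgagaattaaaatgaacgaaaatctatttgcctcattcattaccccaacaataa
*mt-Nd4l*, another complex I subunit, measured 7.22, 8.02 and 5.83 CPM in the inputs and 20.7, 16.9 and 24.1 CPM in the IPs (1.54 ± 0.17). *mt-Atp8*, a subunit of ATP synthase, measured 1.91, 3.50 and 3.09 CPM in the inputs and 13.4, 8.13 and 27.2 CPM in the IPs (2.52 ± 0.42). Of the 13 mitochondrial mRNAs, 5 hold GGACT, against 91.4% of 12633 nuclear mRNAs. The motif was searched as these 5 letters on the sense strand only, and its presence or absence does not show a methylated site.

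Among nuclear genes, classes for ribosomal proteins, respiration and the proteasome leaned to the IP, beside 27.6% enriched and 28.2% depleted of all genes. Of 74 measured genes for mitochondrial ribosomal proteins, which translate the mitochondrial mRNAs, 46 (62.2%) were enriched and 2 (2.70%) depleted, with a median log2 of 0.56. *Mrpl1*, a protein of the large subunit, measured 6.47, 5.94 and 6.63 CPM in the inputs and 29.4, 18.3 and 32.4 CPM in the IPs (2.07 ± 0.21), and *Mrps14*, of the small subunit, 162, 152 and 174 CPM against 391, 328 and 305 CPM (1.07 ± 0.11). Neither shows overlap of the groups. *Mrpl9* was one of the exceptions, at 139, 129 and 134 CPM in the inputs and 109, 108 and 96.9 CPM in the IPs (-0.36 ± 0.09, adjusted p = 0.0065).

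Nuclear-encoded subunits of oxidative phosphorylation showed 40 enriched and 4 depleted genes of 76 (52.6% and 5.26%), with a median of 0.52. *Cox8a*, a small subunit of cytochrome c oxidase, measured 85.2, 76.1 and 76.2 CPM in the inputs and 172, 195 and 151 CPM in the IPs (1.13 ± 0.11). The IPs are all above the inputs. Among the 4 depleted members, *Sdha*, the catalytic subunit of succinate dehydrogenase, measured 509, 359 and 335 CPM in the inputs and 164, 224 and 145 CPM in the IPs (-1.18 ± 0.19), and its span overlaps 1 other gene. No depleted member was left among the 41 of these genes whose spans overlap no other annotated gene, of which 23 were enriched.

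Of 82 listed cytosolic ribosomal proteins 45 passed the filter, 17 (37.8%, beside 27.6% of all genes) were enriched and none was depleted, with a median of 0.75. Their inputs were low in these files, with a median of 1.30 CPM, and reads can be split with their many pseudogenes, so single values are uncertain. *Rps24*, a protein of the small subunit, measured 1.24, 1.07 and 1.66 CPM in the inputs and 5.02, 3.93 and 4.54 CPM in the IPs (1.77 ± 0.24). The proteasome, which degrades ubiquitinated proteins, had 25 enriched and 5 depleted genes of 44 (56.8% and 11.4%, median 0.51). RNA polymerase II had 8 and 3 of 13 (61.5% and 23.1%, median 0.56, and 0.29 over the 7 with spans free of other genes). *Psma7*, a core subunit of the proteasome, measured 1500, 1359 and 1364 CPM in the inputs and 1912, 2104 and 1853 CPM in the IPs, with no overlap (0.47 ± 0.09), whereas *Psmd3*, a lid subunit whose span overlaps 1 other gene, measured 397, 447 and 439 CPM against 105, 110 and 105 CPM (-2.0 ± 0.09).

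**Figure D1:**
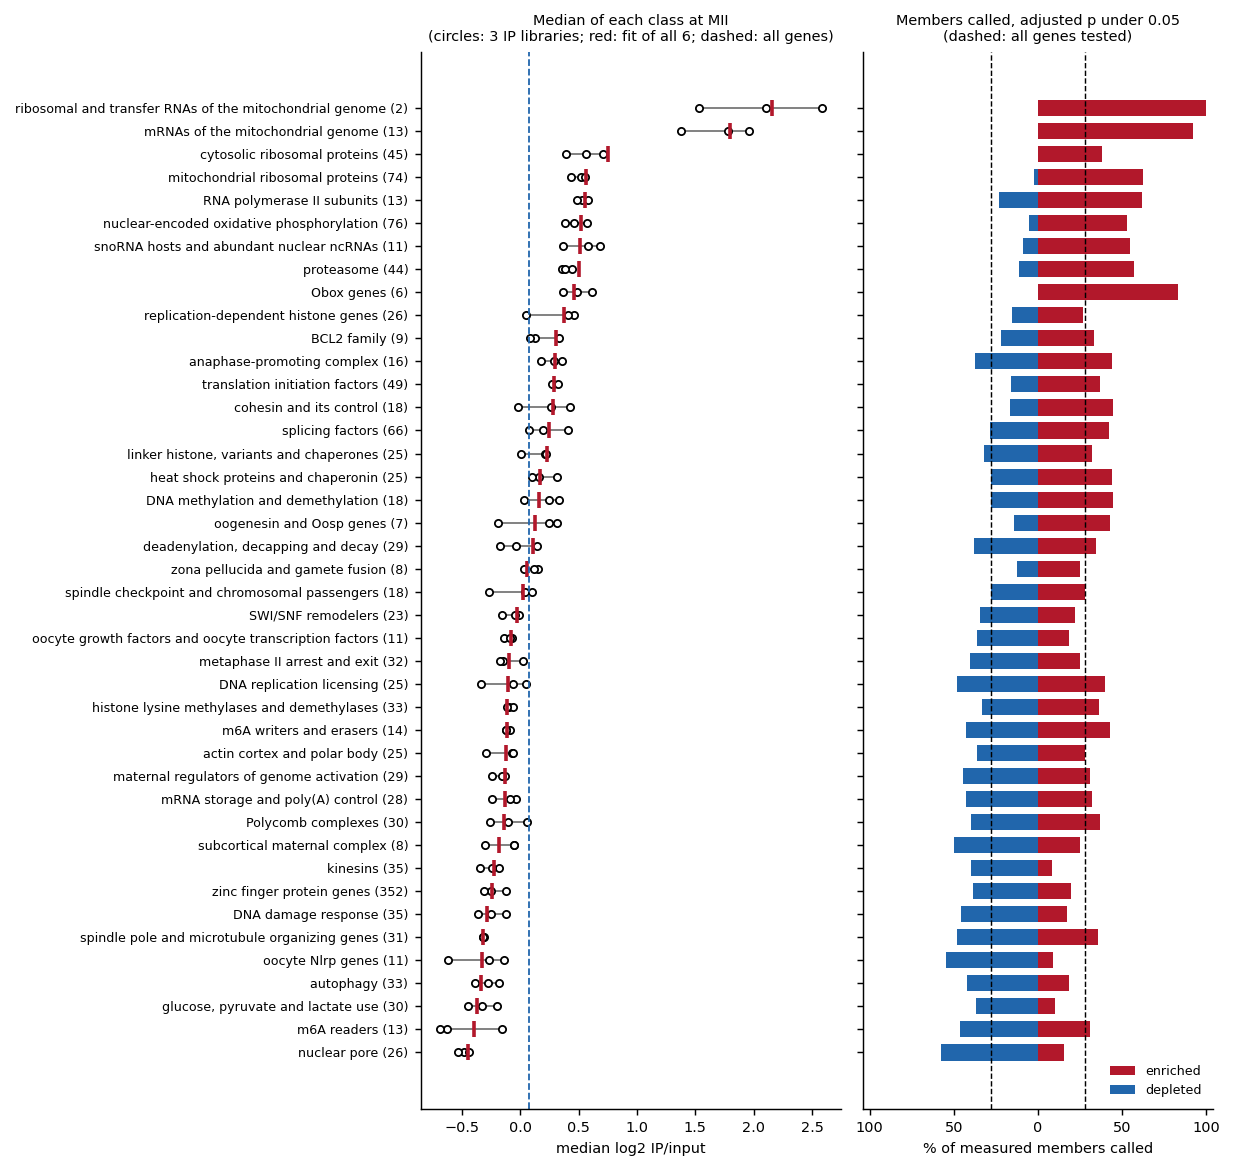
The panels show 42 functional classes in MII oocytes, with the number of measured members in brackets: on the left the median log2 IP/input of each class (circles, each of the 3 IP libraries against the mean input; red, fit of all 6 libraries; dashed, all genes at 0.08), on the right the percent of members enriched (right) and depleted (left) at an adjusted p under 0.05, with dashed lines at 27.6% and 28.2% for all genes. The 2 classes of mitochondrial transcripts lie at the top, and the nuclear pore lies at the bottom at -0.45, a place that other classes take in some settings.

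The nuclear pore had a median of -0.45, the lowest of the classes in the fit of all 6 libraries. That rank was not stable: the m6A readers lay lower without MII IP replicate 2, without MII input replicate 1 or 2 and at a mean of at least 5 CPM, where the m6A writers and erasers did too, the oocyte Nlrp genes without MII IP replicate 3, and histone lysine methylases and demethylases over spans free of other genes. Of its 26 measured genes 15 (57.7%, beside 28.2% of all genes) were depleted and 4 (15.4%, beside 27.6%) enriched. Of the 12 whose spans overlap no other gene 10 were depleted and none enriched (median -0.86). *Nup107*, a scaffold nucleoporin, measured 226, 190 and 202 CPM in the inputs and 88.6, 88.1 and 80.1 CPM in the IPs (-1.27 ± 0.10), and *Nup98*, a nucleoporin with FG repeats, 252, 254 and 263 CPM against 128, 126 and 128 CPM (-1.01 ± 0.08). Both groups of values are tight and far apart.

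Depletion was also the more frequent call in glucose, pyruvate and lactate use, in autophagy, in the DNA damage response, in kinesins and in zinc finger protein genes. Of all genes 27.6% were enriched and 28.2% depleted, and of protein-coding genes 26.7% and 31.3%. For glucose, pyruvate and lactate use the counts were 3 enriched and 11 depleted of 30 (10.0% and 36.7%, median -0.37). *Pfkl*, the liver form of phosphofructokinase, measured 51.2, 55.1 and 55.3 CPM in the inputs and 10.2, 11.5 and 11.7 CPM in the IPs (-2.27 ± 0.11), while *Ldhb*, a lactate dehydrogenase subunit and abundant in the oocyte, measured 1622, 1306 and 1397 CPM against 1420, 1583 and 1385 CPM, which overlap (0.02 ± 0.11, adjusted p = 0.88). For autophagy the counts were 6 and 14 of 33 (18.2% and 42.4%, median -0.33), with *Nbr1*, a cargo receptor, at 132, 129 and 136 CPM in the inputs and 33.4, 30.7 and 36.4 CPM in the IPs (-1.98 ± 0.10). *Atg5*, needed to lipidate LC3, went the other way, from 711, 652 and 665 to 960, 989 and 955 CPM (0.52 ± 0.08).

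In the DNA damage response 6 genes were enriched and 16 depleted of 35 (17.1% and 45.7%, beside 27.6% and 28.2% of all genes, median -0.28). *Mdm2*, the ubiquitin ligase of p53, measured 263, 259 and 280 CPM in the inputs and 77.0, 63.5 and 73.2 CPM in the IPs (-1.91 ± 0.10), and its relative *Mdm4*, whose span overlaps 1 other gene, 3004, 2927 and 2872 CPM against 1738, 1384 and 1918 CPM (-0.80 ± 0.12). Of 35 kinesins, motor proteins that move along microtubules, 3 were enriched and 14 depleted (8.57% and 40.0%, median -0.23). Of the 9 with spans free of other genes none was enriched and 7 were depleted (median -0.69). *Kif23*, of the central spindle, measured 1053, 1043 and 1105 CPM in the inputs and 584, 521 and 601 CPM in the IPs (-0.91 ± 0.09). The 352 zinc finger genes, most of them DNA-binding regulators, held 69 enriched (19.6%) and 137 depleted (38.9%) members (median -0.24). *Zfp212* fell from 742, 862 and 889 to 226, 229 and 228 CPM (-1.87 ± 0.10), and *Zfp57*, which protects imprinted loci, rose from 685, 713 and 773 to 1170, 1133 and 1083 CPM (0.64 ± 0.09).

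Genes that mark the oocyte did not move as a block. Of 8 genes of the zona pellucida and of gamete fusion, 2 (25%) were enriched and 1 (12.5%) depleted (median 0.06, which is -0.02 relative to all genes). The relative median changed sign without IP replicate 2 or 3 and at a mean of at least 5 CPM, to 0.01, 0.03 and 0.14. *Zp3*, a protein of the coat, measured 149, 168 and 168 CPM in the inputs and 183, 187 and 177 CPM in the IPs (0.17 ± 0.09, adjusted p = 0.12). *Astl*, the protease that cleaves the zona after fertilization, measured 352, 277 and 269 CPM against 113, 141 and 102 CPM (-1.34 ± 0.14). Of 11 growth and transcription factors of the oocyte, 2 (18.2%) were enriched and 4 (36.4%) depleted (median -0.07). Relative to all genes their median was -0.15, and -0.06 at a mean of at least 5 CPM. The 2 paired growth factors among them went opposite ways. *Bmp15* measured 2298, 2393 and 2441 CPM in the inputs and 5792, 5582 and 5553 CPM in the IPs (1.25 ± 0.08, adjusted p = 1.1e-06), and *Gdf9* 4996, 4218 and 3727 CPM against 2062, 2796 and 2078 CPM (-0.90 ± 0.15, adjusted p = 0.00046). The groups do not overlap for either.

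In the subcortical maternal complex, a protein assembly below the egg cortex, 2 genes were enriched and 4 depleted of 8 (25% and 50%, beside 27.6% and 28.2% of all genes). The median was -0.18, and 0.11 with 2 genes each way over the 4 with spans free of other genes. Relative to all genes the median was -0.25, and -0.11 without IP replicate 2. *Ooep* rose from 156, 131 and 153 to 609, 592 and 497 CPM (1.95 ± 0.11) and *Padi6* from 1613, 1376 and 1366 to 2382, 2832 and 1983 CPM (0.72 ± 0.13), while *Tle6* fell from 733, 801 and 807 to 431, 471 and 439 CPM (-0.80 ± 0.09). The other depleted members were *Nlrp2* (-0.91 ± 0.09) and *Zbed3* (-0.52 ± 0.11), whose spans overlap 2 other genes each, and *Nlrp4f* (-0.50 ± 0.11). *Nlrp5*, of the same complex, measured 1103, 922 and 917 CPM in the inputs and 1234, 822 and 1189 CPM in the IPs, which overlap (0.14 ± 0.15). Over the 11 oocyte Nlrp genes, 1 was enriched and 6 depleted (9.09% and 54.5%, median -0.33), and of 6 Obox homeobox genes 5 (83.3%) were enriched and none depleted (median 0.47). The linker histone *H1foo*, at 10032, 11644 and 12131 CPM in the inputs, was depleted to 7136, 6994 and 7908 CPM (-0.62 ± 0.10), and *Npm2*, a histone chaperone of the egg whose span overlaps 1 other gene, was enriched from 132, 123 and 122 to 772, 788 and 763 CPM (2.62 ± 0.09).

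Of 32 genes for arrest at and exit from metaphase II, 8 (25%, beside 27.6% of all genes) were enriched and 13 (40.6%, beside 28.2%) depleted (median -0.10). Relative to all genes the median was -0.17, and -0.09 without IP replicate 2. *Fbxo43* (Emi2), the inhibitor of the anaphase-promoting complex that keeps the egg arrested, measured 333, 334 and 348 CPM in the inputs and 115, 110 and 119 CPM in the IPs (-1.56 ± 0.08), whereas *Mos*, the kinase at the head of the MAP kinase arm of the arrest, measured 123, 153 and 155 CPM against 129, 134 and 152 CPM (-0.05 ± 0.11, adjusted p = 0.71). The groups are well apart for *Fbxo43* and overlap for *Mos*. *Pttg1*, the securin that holds back separase, rose from 4443, 4448 and 4943 to 8025, 7129 and 7921 CPM (0.74 ± 0.09), and *Espl1*, separase itself, fell from 354, 404 and 394 to 50.0, 54.2 and 51.3 CPM (-2.89 ± 0.10), with a span that overlaps 1 other gene.

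The spindle checkpoint kinase *Bub1* measured 18.8, 16.0 and 16.5 CPM in the inputs and 64.8, 48.4 and 74.5 CPM in the IPs (1.87 ± 0.16), and its paralog *Bub1b* (BubR1) 1696, 1531 and 1499 CPM against 510, 552 and 516 CPM (-1.58 ± 0.09). Both have spans free of other genes, and they moved in opposite directions. Of 31 spindle pole and microtubule organizing genes, 11 were enriched and 15 depleted (35.5% and 48.4%, beside 27.6% and 28.2% of all genes, median -0.31). Of the 10 with spans free of other genes 1 was enriched and 8 depleted (median -0.51). The highest of the 31 was *Tacc3*, a spindle pole protein. Its span overlaps 1 other gene, and its level rose from 160, 137 and 144 to 1317, 1405 and 1133 CPM (3.13 ± 0.11).

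Chromatin factors also held calls in both directions, as all genes did (27.6% enriched and 28.2% depleted). Of 18 genes of DNA methylation and demethylation 8 were enriched and 5 depleted (44.4% and 27.8%, median 0.16), and of 30 Polycomb genes 11 and 12 (36.7% and 40.0%, median -0.13). Relative to all genes, the Polycomb median was -0.21, but -0.04 without IP replicate 2, -0.13 without input replicate 2 and -0.07 over spans free of other genes. The median for DNA methylation was 0.09 relative to all genes, 0.02 without input replicate 1, 0.20 without input replicate 2, 0.21 without IP replicate 1, 0.30 at a mean of at least 5 CPM and 0.53 over spans free of other genes. *Dnmt1*, the maintenance DNA methyltransferase, rose from 169, 183 and 207 to 760, 604 and 730 CPM (1.91 ± 0.12, span overlapping a microRNA gene). *Uhrf1*, which brings Dnmt1 to hemimethylated DNA, fell from 782, 668 and 640 to 199, 220 and 197 CPM (-1.76 ± 0.10). *Cbx2*, a Polycomb chromodomain protein, fell from 622, 662 and 682 to 86.3, 94.4 and 79.8 CPM (-2.92 ± 0.10). Licensing of DNA replication had 10 enriched and 12 depleted of 25 genes (40.0% and 48.0%), and *Mcm2*, of the replicative helicase, fell from 777, 792 and 768 to 115, 139 and 115 CPM (-2.66 ± 0.10).

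Of 14 writers and erasers of m6A, 6 were enriched and 6 depleted (42.9% each, beside 27.6% and 28.2% of all genes; median -0.12). Relative to all genes the median was -0.19, and -0.12 without input replicate 3, -0.45 at a mean of at least 5 CPM and -0.47 over spans free of other genes. Of the core methyltransferase, *Mettl14* rose from 32.3, 38.5 and 49.4 to 81.4, 66.9 and 95.3 CPM (1.02 ± 0.17) and *Wtap*, its regulatory subunit, from 161, 187 and 125 to 355, 317 and 465 CPM (1.26 ± 0.17), while *Mettl3*, the catalytic subunit, fell from 136, 109 and 111 to 69.5, 78.6 and 60.4 CPM (-0.77 ± 0.13, span overlapping 1 other gene). *Virma* and *Zc3h13*, scaffold proteins of the complex, were depleted (-0.81 ± 0.09 and -0.58 ± 0.08). *Rbm15*, an adaptor that brings the complex to RNA, fell from 56.2, 63.4 and 71.5 to 19.2, 16.0 and 20.99 CPM (-1.77 ± 0.13). Its paralog *Rbm15b* held no count in any input and 7.03, 9.01 and 11.1 CPM in the IPs, at least 59.5-fold higher against a floor of 3 counts per library. Its span overlaps 2 protein-coding genes, so the assignment of these reads is uncertain, and the class median is the same with this gene at its bound.

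Both erasers were depleted: *Alkbh5* fell from 492, 570 and 621 to 305, 268 and 306 CPM (-0.94 ± 0.11), and *Fto*, whose span overlaps 8 other genes, from 32.8, 26.9 and 24.8 to 15.8, 17.5 and 13.2 CPM (-0.86 ± 0.15). The other methyltransferases gave a log2 of 0.96 ± 0.20 for *Mettl5*, which methylates ribosomal RNA, 0.59 ± 0.11 for *Pcif1*, which methylates the cap-adjacent adenosine, and 0.32 ± 0.12 for the complex member *Cbll1*, which passed the test, and 0.12 ± 0.09 for *Mettl16* and -0.35 ± 0.15 for *Zcchc4*, which did not.

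Of 13 readers, 4 were enriched and 6 depleted (30.8% and 46.2%, beside 27.6% and 28.2% of all genes). The median was -0.40, and 0.22 over the 7 whose spans overlap no other gene, a change of sign. The median also moved with single libraries, at -0.63, -0.15 and -0.68 in IP replicates 1, 2 and 3. Relative to the median of all genes it was -0.47 with all 6 libraries, -0.84 without IP replicate 2, -0.12 without input replicate 3, -0.25 without IP replicate 3 and -0.28 without IP replicate 1. At a mean of at least 5 CPM the relative median was -0.75. The 3 cytoplasmic YTHDF paralogs differed. *Ythdf1* rose from 1.73, 2.03 and 1.77 to 5.02, 6.05 and 4.93 CPM (1.53 ± 0.20). *Ythdf2* fell from 100.0, 92.3 and 90.4 to 46.1, 57.1 and 45.5 CPM (-0.93 ± 0.11), and *Ythdf3*, the most abundant of them in the inputs, from 414, 497 and 501 to 106, 86.9 and 124 CPM (-2.15 ± 0.14). In none of the 3 do IP and input overlap.

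The nuclear reader *Ythdc1*, the subject of the knockdown in the series, measured 10.7, 12.5 and 12.8 CPM in the inputs and 22.8, 16.2 and 25.1 CPM in the IPs (0.83 ± 0.17, span overlapping 1 other gene), and *Ythdc2*, a helicase of meiotic entry, gave 0.22 ± 0.09 (adjusted p = 0.074). *Hnrnpa2b1*, a nuclear RNA-binding protein, was enriched from 107, 137 and 144 to 396, 296 and 422 CPM (1.52 ± 0.15). All 3 IGF2BP proteins, which stabilize their targets, were depleted, with *Igf2bp2* the most abundant, from 438, 426 and 459 to 257, 263 and 262 CPM (-0.76 ± 0.08).

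**Figure D2:**
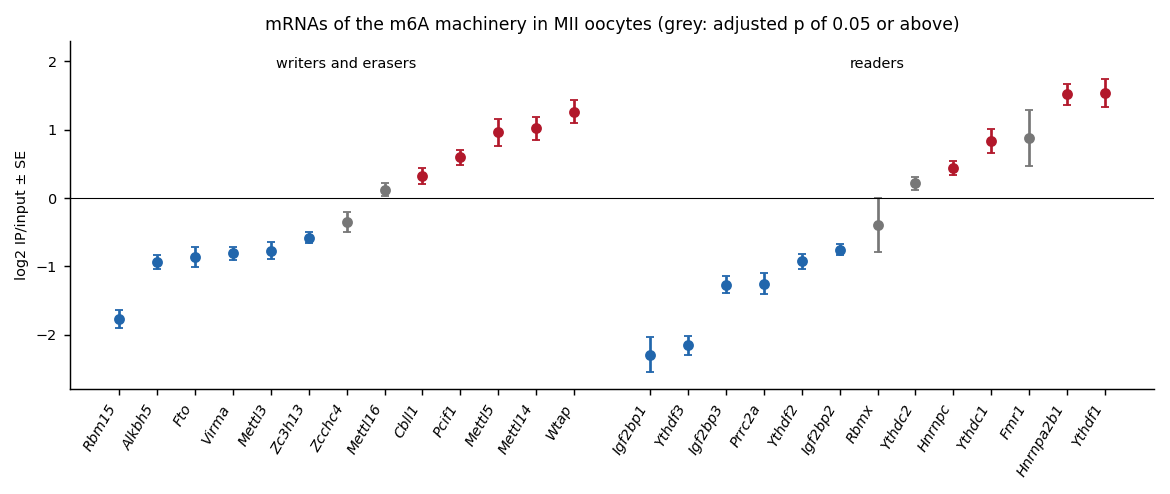
The plot gives log2 IP/input with its standard error (3 IP against 3 input libraries) for genes of the m6A writers and erasers on the left and of the readers on the right, in grey where the adjusted p was 0.05 or above. *Rbm15b*, at 0 in the inputs, is left out, and each group runs from depleted members such as *Rbm15* (-1.77) and *Igf2bp1* (-2.29) to enriched ones such as *Wtap* (1.26) and *Ythdf1* (1.53).

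Among proteins that store, deadenylate or degrade maternal mRNA, *Ybx3*, a Y-box protein and one of the genes the study names as m6A-tagged, rose from 6.78, 9.44 and 8.29 to 103, 91.2 and 111 CPM (3.64 ± 0.14), and its span holds a small nucleolar RNA gene. *Eif4enif1* (4E-T), which holds eIF4E-bound mRNA silent, fell from 790, 708 and 686 to 306, 302 and 273 CPM (-1.31 ± 0.09, span overlapping 1 other gene). Of 29 genes of deadenylation, decapping and decay, 10 were enriched and 11 depleted (34.5% and 37.9%, beside 27.6% and 28.2% of all genes; median 0.11). *Pan2*, a deadenylase with a span free of other genes, fell from 406, 372 and 385 to 78.6, 84.5 and 75.8 CPM (-2.28 ± 0.09), and *Dcp1a*, a decapping activator, from 2390, 2188 and 2116 to 274, 307 and 272 CPM (-2.97 ± 0.10, span overlapping 1 other gene). *Btg4*, the CCR4-NOT adaptor needed to clear maternal mRNA, rose from 1992, 2056 and 2078 to 2518, 2470 and 2721 CPM (0.33 ± 0.09), and its span overlaps 4 other genes.

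Of the other genes that the study names as m6A-tagged, *Camk1d*, a calcium-dependent kinase, rose from 125, 138 and 159 to 1288, 799 and 1450 CPM (3.07 ± 0.21, span overlapping a pseudogene). *Rab3b*, a small GTPase of secretory vesicles, and *Commd3* gave 1.22 ± 0.11 and 0.79 ± 0.12. *Sqstm1*, the autophagy receptor p62 that the study mentions from other work, was depleted from 82.2, 76.1 and 75.8 to 48.1, 57.3 and 45.2 CPM (-0.64 ± 0.11). In all 4 the IPs and inputs do not overlap. The study chose the tagged genes from those lowered by the *Ythdc1* knockdown at L2C, while the values here are at MII. A further gene that it names, *Tcea18*, is not reported here.

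The protein-coding genes at the ends of the distribution were taken from those with a mean of at least 10 CPM, groups that do not overlap and a span free of other annotated genes. Of the 10 highest, *Nufip1* (chr14:76110891-76137379), an RNA-binding partner of the fragile X protein, measured 2.48, 3.20 and 3.77 CPM in the inputs and 29.3, 21.5 and 32.5 CPM in the IPs (3.14 ± 0.21). *Calr4*, a calreticulin family gene, rose from 29.4, 25.6 and 23.8 to 158, 148 and 149 CPM (2.53 ± 0.11). The list also held *Terf1*, which binds telomeric repeats (2.31 ± 0.14), and *Tfam*, the packaging and transcription factor of mitochondrial DNA, at 3.46, 3.71 and 3.20 CPM in the inputs and 17.4, 15.5 and 17.0 CPM in the IPs (2.26 ± 0.14). The others were *Nifk*, *Zmat2*, *Cdc34*, *Lrrfip2*, *Atp6v1d* and *Zfp217*, at 2.27 to 2.40. *Nufip1*, *Tfam* and *Zfp217* reached a mean of 10 CPM through the IPs alone, so their place here is a description and no test.

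At the low end, *Abtb2* (chr2:103566310-103718423), a protein with ankyrin repeats and a BTB domain, measured 18.7, 20.01 and 19.1 CPM in the inputs and 1.61, 2.21 and 2.05 CPM in the IPs (-3.29 ± 0.16). *Lrrc8e*, a subunit of volume-regulated anion channels, fell from 399, 410 and 409 to 52.4, 55.2 and 54.9 CPM (-2.91 ± 0.09), and *Grb10*, an imprinted adaptor of insulin signaling, from 78.0, 70.7 and 76.8 to 11.0, 10.2 and 9.58 CPM (-2.87 ± 0.11). The others were *Wbp1l*, *Cbx2*, *Mtmr4*, *Unk*, *Zfp46* and *Tspyl2*, at -2.95 to -2.78. *Abtb2* and *Tspyl2* reached a mean of 10 CPM through the inputs alone, and in each of these genes the lack of overlap was a condition of the choice.

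**Figure D3:**
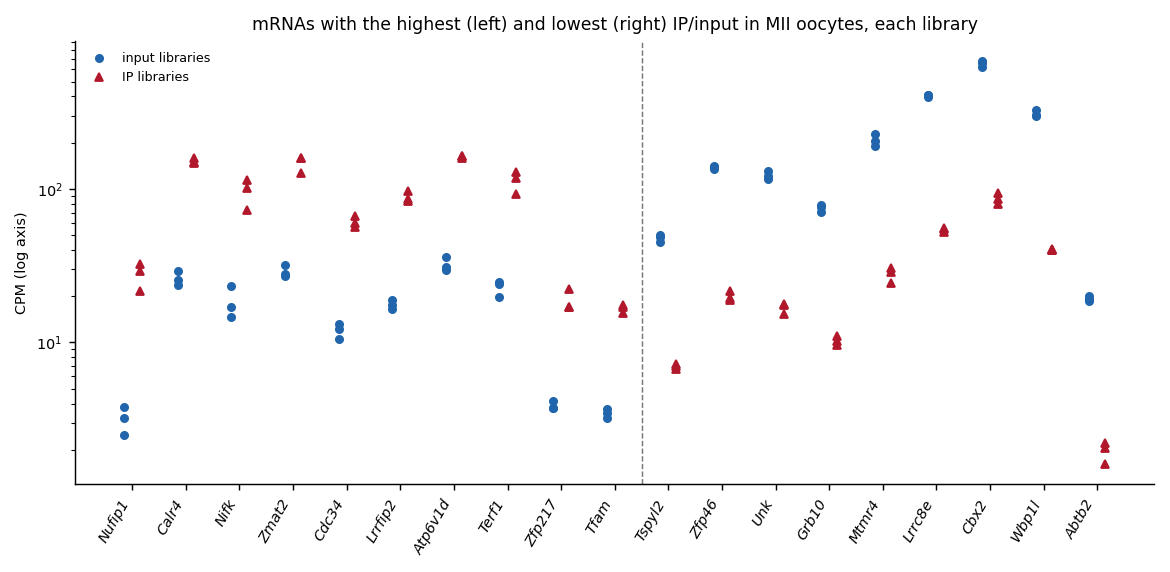
Each point is the level of an mRNA in 1 library, in CPM on a log axis, for the 10 protein-coding genes with the highest log2 IP/input (left of the dashed line) and 9 of the 10 with the lowest (right), with circles for the 3 inputs and triangles for the 3 IPs. Separate IP and input points were a condition of the choice, and log2 IP/input runs from 3.14 for *Nufip1* to -3.29 for *Abtb2*.

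Coding stretches of 90 bases from 2 of these genes are shown as an example of the motif at each end of the distribution. Of 18 genes searched, 13 held GGACT in a coding stretch of this length within 1 exon, 11 of them no more than 1 in any stretch, and the other 2 are shown for holding 2. Each is read 5′ to 3′ on the sense strand from GENCODE M21 (GRCm38), with GGACT in capitals: *Calr4* (enriched) at chr4:109244074-109244163 and *Abtb2* (depleted) at chr2:103566727-103566816.
Calr4: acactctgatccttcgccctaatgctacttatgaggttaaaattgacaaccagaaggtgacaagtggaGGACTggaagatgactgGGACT
Abtb2: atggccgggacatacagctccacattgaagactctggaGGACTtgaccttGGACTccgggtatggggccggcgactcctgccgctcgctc
Since they were chosen for their motifs, no comparison with other sequence is made. Over nuclear mRNAs, GGACT occurs in 87.3% of those enriched, 96.5% of those depleted and 90.3% of those with no call. Longer mRNAs are more likely to hold any such motif, and the part of length in these shares was not tested. Among protein-coding genes the median length was 2518.5 bases for those enriched and 3631.5 for those depleted, with a median of 0.98 and 1.09 motifs per 1000 bases.

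**Figure D4:**
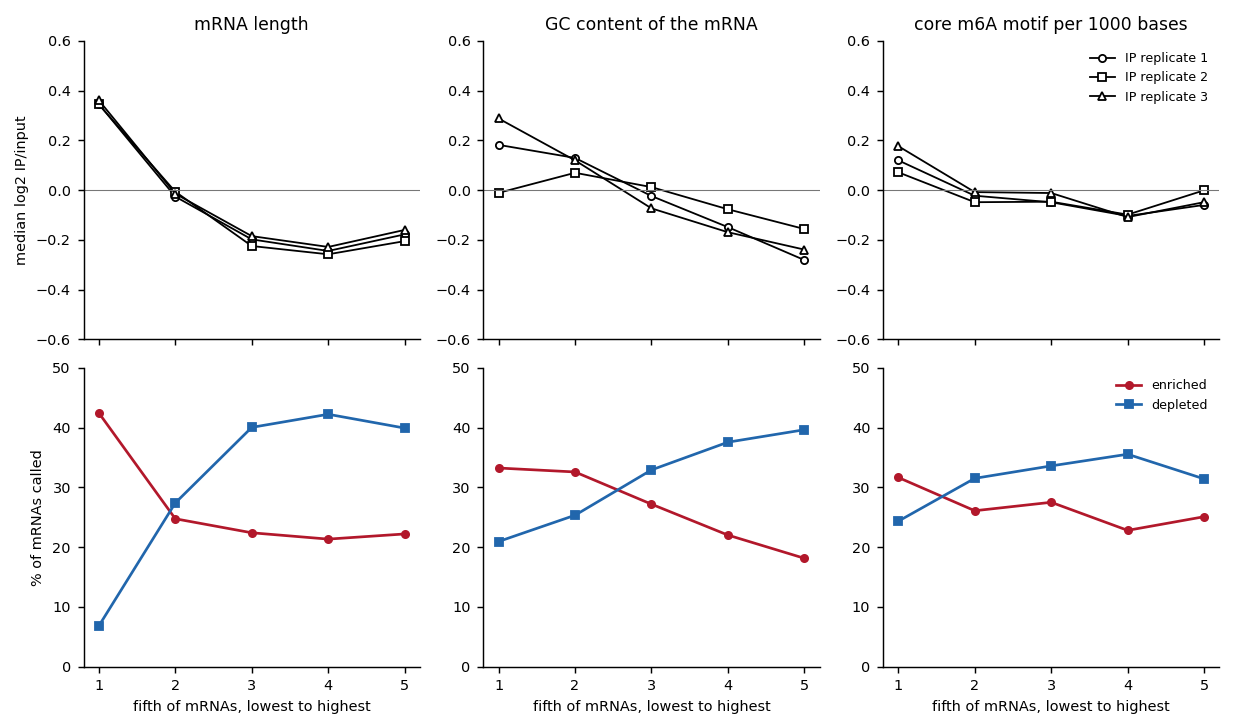
The upper panels plot the median log2 IP/input of nuclear mRNAs in 5 equal groups by mRNA length, GC content and density of the core m6A motif, with a line for each of the 3 IP replicates against the mean input, and the lower panels the percent of mRNAs enriched and depleted in each group. The depleted share is 6.81% in the shortest group, highest at 42.2% in the group before the longest and 39.9% in the longest. It changes less with the density of the motif, and IP replicate 2 is flatter than the others by GC content.

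The length of an mRNA went with its IP value more closely than its density of GGACT did. In 5 equal groups of 12633 nuclear mRNAs by length, from a median of 1228 to 6590 bases, the median log2 IP/input was 0.41, -0.01, -0.20, -0.25 and -0.19, and the depleted share was 6.81%, 27.4%, 40.05%, 42.2% and 39.9% (Spearman rho -0.25 across genes, which share libraries, given as a description). Groups by GGACT per 1000 bases gave medians of 0.16, -0.02, -0.03, -0.10 and -0.0045 (rho -0.08). By GC content the medians fell from 0.19 in the lowest group to -0.24 in the highest (rho -0.20). In the lowest group by GC content, IP replicate 2 stood at -0.01 while replicates 1 and 3 stood at 0.18 and 0.29. By level in the inputs they fell from 0.30 to -0.35 (rho -0.26), a relation in which the inputs enter both measures. Over the 5596 mRNAs whose spans overlap no other gene, rho with length was -0.32.

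Classes of short mRNAs were therefore also set against all mRNAs of the same length group, which is a coarse match. The shortest group runs from 60 to 1685 bases with a median of 1228. Over all measured members, the median was 863 bases for oxidative phosphorylation and 937 for cytosolic ribosomal proteins. In the shortest group, where the median of all mRNAs was 0.41, medians were 0.78 for 40 cytosolic ribosomal proteins, 0.62 for 45 mitochondrial ribosomal proteins, 0.61 for 27 proteasome genes and 0.55 for 63 genes of oxidative phosphorylation. In the next groups, with a median length of 2097, 2995 and 4160 bases, all mRNAs stood at -0.01, -0.20 and -0.25. The 8, 9 and 8 mitochondrial ribosomal proteins there stood at 0.15, 0.76 and 0.87, and the 6 and 7 proteasome genes of the first 2 of these groups at 0.45 and 0.01. In the longest group, where all mRNAs stood at -0.19, the 11 nuclear pore genes stood at -0.84. Splicing factors showed no single direction: from the shortest group to the longest, their medians were 0.71, -0.04, -0.08, -0.42 and 1.07, over 16, 16, 14, 10 and 10 genes. The part of length in the values of a class was not tested further.

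Enrichment was next compared between stages, in a fit of all 18 libraries with the test of the difference itself. This test uses the MII libraries again and so does not add independent evidence on the MII values. Of 21950 genes, 923 (4.21%) had a higher and 686 (3.13%) a lower log2 IP/input at MII than at L1C, and 2021 (9.21%) a higher and 2431 (11.1%) a lower one at MII than at L2C. The 686 genes became 440 without MII IP replicate 1, 440 without L1C IP replicate 1 and 445 without MII input replicate 2. The balance of higher and lower genes depended on the processing: scaling to library size gave 848 higher and 968 lower genes against L1C, and against L2C the 12 libraries of MII and L2C alone gave 2990 higher and 1778 lower, DESeq2 2713 and 2425 and the fit with no filter on low counts 2249 and 2175. For the mitochondrial mRNAs, class medians at MII, L1C and L2C in this fit were 1.74, 1.86 and 1.64, and none of the 13 differed between MII and a later stage. Cytosolic ribosomal proteins gave 0.70, 0.71 and 0.19, with 3 of 45 higher at MII than at L2C, a share under the 9.21% of all genes, and none lower. Mitochondrial ribosomal proteins gave 0.52, 0.51 and 0.19, with 14 of 74 higher and 2 lower at MII than at L2C. The nuclear pore gave -0.50, -0.49 and -0.23, with none of 26 higher and 5 lower at MII than at L2C. The 11 Nlrp genes gave -0.38, -0.39 and 0.12, and 3 of them were lower and 1 higher at MII than at L2C.

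Single genes past the test of the difference were chosen for that difference, and their values are a description. *Lrrfip2* was enriched at MII (2.28 in this fit) and not at L1C (-0.22) or L2C (0.07), so that MII exceeded them by 2.50 ± 0.15 and 2.21 ± 0.16. *Prpf3*, a splicing factor of the U4/U6 particle, stood at 1.46, -0.41 and -0.73. *Hspa4*, a chaperone of the Hsp110 kind, stood at 1.53 at MII and -0.68 at L2C. In the other direction *Abtb2* stood at -3.34 at MII and -0.67 at L1C, *Grb10* at -2.92 at MII and -0.63 at L2C, and *Ambra1*, a regulator of autophagy, at -2.0 at MII and 0.06 at L2C.

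**Figure D5:**
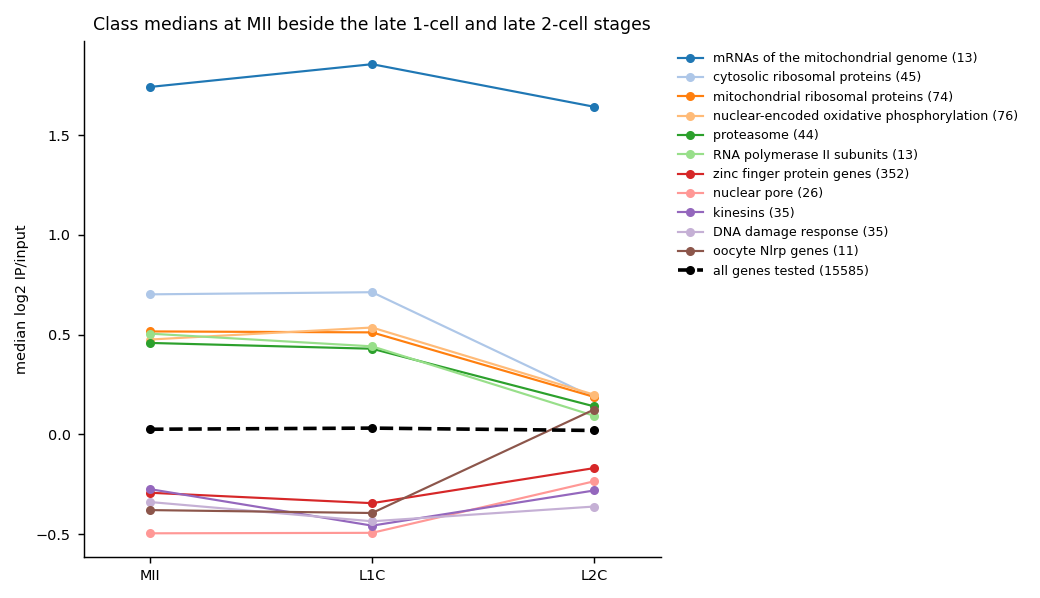
The lines join the median log2 IP/input of a class at MII, L1C and L2C in the fit of all 18 libraries, with the number of genes in brackets and all genes dashed. The medians of the mitochondrial mRNAs stay between 1.64 and 1.86. The median of cytosolic ribosomal proteins is 0.70 at MII and 0.19 at L2C, with 3 of 45 members past the test of the difference.

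Later levels of the same genes were read from the L1C and L2C inputs, which are not part of the MII comparison. Of 19611 genes tested there, 43.8% were higher and 39.5% lower at L2C than at L1C. Among 15072 genes with values in both tests, 34.7% were higher and 48.7% lower. Of those depleted in the MII IP (4349 genes), 30.7% were higher and 53.3% lower at L2C, and of those enriched (4161 genes) 35.2% were higher and 49.3% lower. Genes with no call at MII (6562) gave 37.1% and 45.2%. The shares depended on how far an RNA was from 0: of 1623 RNAs enriched with a log2 beyond 1, 42.2% were higher and 41.0% lower at L2C, and of 2156 depleted beyond 1, 33.7% and 49.7%. Among protein-coding genes the shares were 37.85% and 46.4% for those enriched and 31.6% and 52.9% for those depleted. The differences between these sets were not tested. The study defines genes of the major activation of the zygotic genome by a rise from L1C to L2C. A level at L2C can therefore hold newly made RNA beside RNA kept from the oocyte. The part of each was not tested. Levels are also relative within a library, so these shares do not measure decay or the fate of the oocyte's own RNA.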

How the data were processed

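Per the labels and the study's methods, RNA captured by the anti-m6A antibody and input RNA were turned into Smart-seq2-type libraries primed on the poly(A) tail, while the labels also name a stranded kit. Both kinds of library share the step, and the effect of tail length on the values was not tested. The authors quantified reads with kallisto, whose version is not given in the sources used here, and deposited estimated counts, not scaled to depth, for 55471 genes. The targets are whole gene spans of GRCm38 (mm10), introns included. Reads of overlapping genes can therefore be shared, and use of strand in the counting is not stated. TPM values deposited beside them were not used. The deposited counts were rounded, scaled by TMM and tested with the quasi-likelihood test of edgeR 4.0.16 in R 4.3.3 on the 6 MII libraries after its filter on low counts. CPM values are scaled by TMM too. An RNA was called enriched or depleted at a Benjamini-Hochberg adjusted p under 0.05 over all genes tested. Differences between stages were tested as interactions in 1 fit of the 18 IP and input libraries, and L1C and L2C inputs were fitted alone. DESeq2 1.42.0 was an alternative, beside other scalings, filters, call rules, a replicate block and each library left out. Summaries used pandas 2.3.3 and numpy 2.4.6 under Python 3.11.15, and plots matplotlib 3.10.9.

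Gene types, positions and sequences came from GENCODE M21, which matched 55144 gene IDs. Unmatched IDs held 0.0983% of the MII counts. An mRNA is the transcript chosen for a gene in that annotation, and properties were taken for 12633 nuclear mRNAs. A span was free of other genes in 6941 (44.5%) of the genes tested. The functional classes, the members and the named genes were chosen with earlier results of these data known. Named genes were the 10 highest and 10 lowest protein-coding genes among those called, with groups that do not overlap, a mean of at least 10 CPM and a span of their own, the 5 most abundant and the 5 called members with the smallest p of each class, the m6A machinery, genes of the study's text and the markers. *mt-Atp8* and *mt-Co2* fall outside this rule and were chosen after their values were seen, and 1 of the 10 lowest genes is not reported here. On simulated counts with known changes, over 15263 genes, the MII test found 20 of 67 genes changed 1.5-fold, 43 of 67 changed 2-fold and 59 of 66 changed 4-fold, with 8 false calls and none in the wrong direction. Far fewer genes were changed in the simulation than were called at MII, with as many raised as lowered. Its recovery and its false calls therefore need not hold for the real libraries. Where a group held no count, the floor was 3 counts per library.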

Additional observations from a re-analysis of the deposited data

Results flagged for a closer look

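The following values differed between stages under the same contrast of IP against input, by the interaction test of edgeR in the fit of all 18 libraries. Against L1C, 923 genes had a higher and 686 a lower log2 IP/input at MII, and against L2C 2021 had a higher and 2431 a lower one, a balance that turned under other settings (library size scaling gave 848 higher and 968 lower against L1C, and the 12 libraries of MII and L2C alone gave 2990 higher and 1778 lower against L2C). In comparison with L1C, MII was higher by 2.50 for *Lrrfip2*, 1.87 for *Prpf3* and 2.00 for *Terf1*, and the differences were -2.67 for *Abtb2*, -1.29 for *Esrrb*, an orphan nuclear receptor of pluripotent cells, and -0.85 for *Mdm2*. In comparison with L2C, MII was higher by 2.19 for *Prpf3*, 2.21 for *Lrrfip2* and 2.20 for *Hspa4*, and the differences were -2.29 for *Grb10*, -2.06 for *Ambra1* and -1.96 for *Pdk1*, a kinase that inhibits pyruvate dehydrogenase.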

How the results depend on the processing

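Under the other scalings, filters, tools and each MII library left out, the counts at MII stayed within 1.5 times of 4307 enriched and 4389 depleted genes: DESeq2 gave 3717 and 4363, and leaving out 1 library gave 3391 to 4054 and 3928 to 4556. Restricting the count to genes with a span free of other genes left 1976 and 1830, and a log2 beyond 1 in size as a further condition left 1757 and 2189, as both settings count fewer genes by construction. Fewer genes were lower at MII than at L1C (686) with the 12 libraries of those stages alone (444) and with each library left out in turn (440 to 676). DESeq2 raised it to 1026 and library size scaling to 968, with 1221 and 848 higher genes. Against L2C, the 12 libraries of those stages gave 2990 higher and 1778 lower genes, DESeq2 2713 and 2425 and no filter 2249 and 2175, where the fit of all 18 had more lower than higher genes. The cause was not tested. With the replicate number as a block the calls at MII were 4099 and 4223 and genes lower at MII than at L1C were 380. Input RNA came from the same batches as the IP RNA, but the sources do not say which MII libraries pair. Deviations of same-numbered IP and input libraries from their group means correlated at -0.21, -0.22 and 0.33. Input replicate 1 correlated at 0.54 with IP replicate 2 and at -0.48 with IP replicate 3. Deviations from a mean of 3 libraries depend on each other, so these correlations do not settle the pairing. No gene named in the text and called at MII changed direction under any setting run. Of 588 class medians, taken relative to the median of all genes in the same setting, 22 changed sign, in 12 of the 42 classes. Leaving out 1 MII library changed the sign or moved the median by over 1.5 times in 21 of the 42 classes, restricting to spans free of other genes in 24, and a mean of at least 5 CPM in 16. In 11 classes none of these did: both classes of mitochondrial transcripts, cytosolic and mitochondrial ribosomal proteins, nuclear-encoded oxidative phosphorylation, the proteasome, translation initiation factors, Obox genes, zinc finger genes, the DNA damage response and autophagy. Beside the medians discussed above, leaving out 1 MII library moved that of the Nlrp genes from -0.40 to -0.26 (IP replicate 2), that of splicing factors from 0.17 to 0.09 (input replicate 1 or IP replicate 3), that of deadenylation, decapping and decay from 0.04 to between -0.09 and 0.10, and that of heat shock proteins and chaperonin from 0.09 to between 0.03 and 0.15. With spans free of other genes a change of sign held for the m6A readers, mRNA storage, the anaphase-promoting complex, replication-dependent histones, maternal regulators of genome activation, the BCL2 family, the zona pellucida, oogenesins and snoRNA hosts. Genes of low input, such as the cytosolic ribosomal proteins, rest on fewer counts, and recovery by input level was not tested. In the simulation, where few genes changed, most 1.5-fold changes were missed, which need not hold for the real libraries.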

Other observations

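Classes outside the comparisons above gave the following values at MII, beside 27.6% enriched and 28.2% depleted of all genes. Of 66 splicing factors 28 were enriched and 19 depleted (42.4% and 28.8%, median log2 IP/input 0.25). *Prpf8*, the core protein of the spliceosome, measured 23.4, 17.1 and 22.6 CPM in the inputs and 68.2 to 79.3 CPM in the IPs (1.82 ± 0.13). Of 49 translation initiation factors and their kinases 18 were enriched and 8 depleted (36.7% and 16.3%, median 0.29). Of 25 heat shock proteins and chaperonin subunits 11 were enriched and 7 depleted (44.0% and 28.0%, median 0.17). *Cct2*, a subunit of the chaperonin, measured 29.2, 26.8 and 31.9 CPM against 105, 102 and 91.8 CPM (1.77 ± 0.11). Of 9 measured genes of the BCL2 family 3 were enriched and 2 depleted (33.3% and 22.2%), near the shares of all genes. The abundant *Bcl2l1*, which blocks apoptosis, fell from 812, 929 and 867 to 341, 375 and 376 CPM (-1.26 ± 0.09). Of 29 maternal regulators of genome activation 9 were enriched and 13 depleted (31.0% and 44.8%). Their median relative to all genes was -0.20, and 0.28 over spans free of other genes. *Pou5f1* (Oct4) was among those depleted, from 267, 310 and 273 to 120, 149 and 148 CPM (-1.03 ± 0.11, span overlapping 1 other gene).

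Noncoding RNAs with a span of their own were also found at the ends. *Gm9788* measured 30.6, 27.6 and 28.7 CPM in the inputs and 185, 189 and 163 CPM in the IPs (2.63 ± 0.10), and *AA619741* 24.6, 27.2 and 34.7 CPM against 5.38, 4.99 and 5.59 CPM (-2.44 ± 0.16). For *Gm4541* the inputs spread widely, at 0.44, 4.37 and 5.37 CPM, below the IPs at 30.7, 19.9 and 36.7 CPM (3.14 ± 0.54).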
